A study of Arabidopsis thaliana with 9 samples.

Results

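The cells described here are uninduced WOX5-reporter cells of the Arabidopsis thaliana root, sorted as quiescent centre (QC) cells by the GFP of a WOX5 promoter line, with no PLT2-GR induction. They are covered by the 3 arrays labelled control, of 9 arrays in the series, and every array with this label was used. Each array carries 21430 loci, 1 row per locus, besides 64 control probe sets, and all 21430 were placed on the scale of levels within these arrays. The other 6 arrays came from plants moved to 10 µM dexamethasone for 1 h or 4 h. Their values enter no level or band given here and were used only to find loci whose values are identical on all 9 arrays. Whether the deposited values had been normalized over all 9 arrays together was not checked.

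All plants were plt1 plt2 double mutants that carried a complementing construct, PLT2 joined to the glucocorticoid receptor (PLT2-GR) and driven by the PLT2 promoter. The fusion enters the nucleus when dexamethasone is given. They also carried WOX5::erGFP, a GFP kept in the endoplasmic reticulum and driven by the WOX5 promoter. At 5 days after germination the control seedlings were moved to plates with the solvent DMSO for 1 h. Their root tips were then digested with cellulase and macerozyme for 1 h, and GFP-positive protoplasts were sorted and their RNA extracted. The labels call the arrays replicates 1, 2 and 3, and with 1 group there was nothing to test, so levels are described with their spread over arrays. All 9 arrays share the plt1 plt2 mutations, and the cells had been through wounding, digestion and sorting before their RNA was taken.

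The quiescent centre is the small group of rarely dividing cells at the tip of the root meristem around which the stem cells of the root tissues lie. The homeodomain factor WOX5 marks it, and the GRAS factors SHR and SCR, auxin and the PLT factors of the AP2 class help to specify it. Cells of the root cap below it and of the endodermis, cortex and stele above it are its neighbours.

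Levels are log2 values. By their mean over the arrays the loci were divided into 4 bands of equal size, called high, upper-middle, lower-middle and low, with limits of 7.72, 5.74 and 3.59. The high band thus held 25.0% of all loci and the low band 25.0%. The single values ran from 2.22 to 13.94. Probe sets differ in how strongly they bind their target, so a band places a gene within the array and the order of neighbouring genes is not an order of transcript abundance. In such bulk samples fewer cells of a type and less RNA per cell cannot be told apart, and what fraction of the sorted protoplasts were QC cells was not measured.

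**Figure D1:**
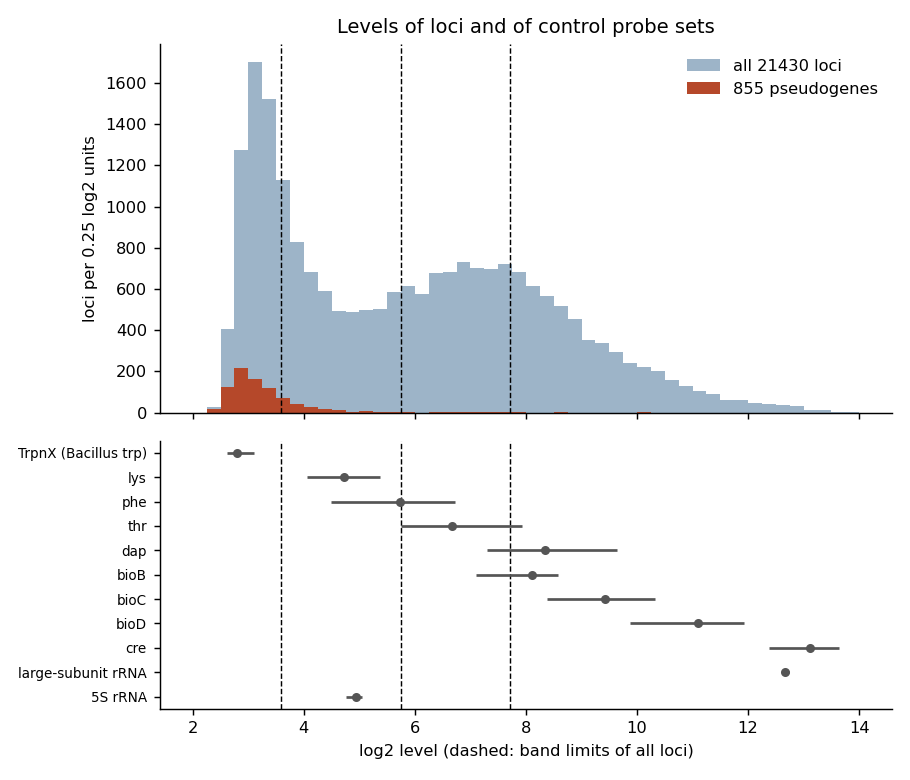
The upper panel counts loci per 0.25 log2 units of the mean level over the 3 control arrays, with pseudogenes in red, and the lower panel shows the range (line) and mean (point) of the control probe sets of each kind over the arrays. The dashed lines at 3.59, 5.74 and 7.72 are the band limits of all 21430 loci, and most of the 855 pseudogenes lie left of the first.

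Low levels were judged by sequences that plants lack and by loci annotated as pseudogenes, some of them as transcribed. The trp control probe sets, of a bacterial gene that is not among the usual spiked-in transcripts, had a mean of 2.80 ± 0.045 (SD, n = 3), and 3.00% of loci lay below it. The other bacterial controls ranged from 4.72 for lys to 13.1 for cre. On all 3 arrays 1105 loci, 5.16% of all, were not above the highest trp probe set of that array. Of 855 pseudogenes measured, 674 (78.8%) lay in the low band and 3 in the high band. Values identical to those of another locus were found at 17 of the pseudogenes. The share of loci annotated as pseudogenes was 12.6% in the low band and 0.056% in the high band. The share with a gene symbol was 31.0% in the low band and 52.7% in the high band.

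Genes listed for organs that a root tip does not hold sat mostly at the low end. The 74 measured were listed for flower identity and flowering, pollen and tapetum, seed storage and the stomatal lineage. Of them, 52 (70.3%) lay in the low band, 21 in the lower-middle, 1 in the upper-middle and none in the high band. The exception in the upper-middle band was SCRM, a bHLH factor of stomatal development that also acts in the cold response, at 7.24, 7.15 and 7.13 on replicates 1, 2 and 3. The seed albumin gene SESA2 had 2.46, 2.53 and 2.48, and the floral homeotic gene AG had 2.75, 2.88 and 2.76. Both lay below the highest trp probe set on each array.
The low-band counts were 15 of 19 floral, 12 of 17 pollen, 15 of 21 seed and 10 of 17 stomatal genes. The floral members ran from AG to STK, an ovule identity gene, with 5.07, 5.53 and 5.35. The highest members of the other lists included GRP17, a pollen coat protein (4.68), SCRM2, a bHLH partner of SCRM (5.39), and OST1, a kinase of abscisic acid signalling in guard cells (4.68).

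Regulators of the shoot meristem, leaf and embryo were spread over the lower bands. None of 23 lay in the high band, 1 in the upper-middle, 11 in the lower-middle and 11 in the low band. WUS, the shoot counterpart of WOX5, had 2.88, 2.94 and 2.79, and WOX8 and WOX3 had means of 2.83 and 2.80. AS1, a MYB factor of leaf patterning, had 6.89, 6.73 and 6.93, the one member of the upper-middle band, and AS2 and KAN1 had 5.70 and 5.52.

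The 2 genes of the genotype were placed first among the niche regulators. PLT2 had 8.66, 8.53 and 8.55 on replicates 1, 2 and 3, in the high band on each array. PLT1 had 4.32, 4.41 and 4.27, in the lower-middle band. The mutant PLT2 transcript and the PLT2-GR transcript cannot be told apart by a probe set, and the position of the PLT1 probes relative to the mutation is not given, so neither value checks the genotype.

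Of 28 measured regulators of the stem cell niche and root meristem, 11 (39.3%) lay in the high band, 5 in the upper-middle, 7 in the lower-middle and 5 in the low band. TMO7, a small bHLH protein that moves from embryo cells towards the future root pole, had 10.77, 10.72 and 10.77. PLT3, a PLT2 paralog, had 9.63, 9.65 and 9.63, and ACR4, a receptor kinase of stem cell divisions, had 9.47, 9.18 and 9.21. All 3 lay in the high band on each array.
SCR, the GRAS factor of the QC and the endodermis, had 8.66, 8.50 and 8.50, while SHR, its mobile partner that is transcribed in the stele, had 5.92, 6.38 and 6.18. The retinoblastoma homologue RBR1 had 8.04, 7.59 and 7.65, so that its replicates 2 and 3 fell short of the high band limit. The auxin response factor MP had 8.60, 8.81 and 8.62, the corepressor TPL 8.73, 8.84 and 8.82. These genes were thus placed high in sorted cells, with SHR in the upper-middle band.
Further PLT family factors were spread over the bands: BBM and PLT5 had means of 6.16 and 7.60, in the upper-middle band, and PLT7 had 3.67, 3.26 and 3.25, with a mean in the low band. Other members sat in the low band too. ERF115, a factor that promotes QC division, had 3.05, 2.93 and 3.05, CLE40, a peptide of the root tip, had 3.33, 3.33 and 3.26, and AGL42, a MADS gene used as a QC marker, had 2.78, 2.83 and 3.04. AGL42 was above the highest trp probe set on replicate 3, and not on the other arrays.

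**Figure D2:**
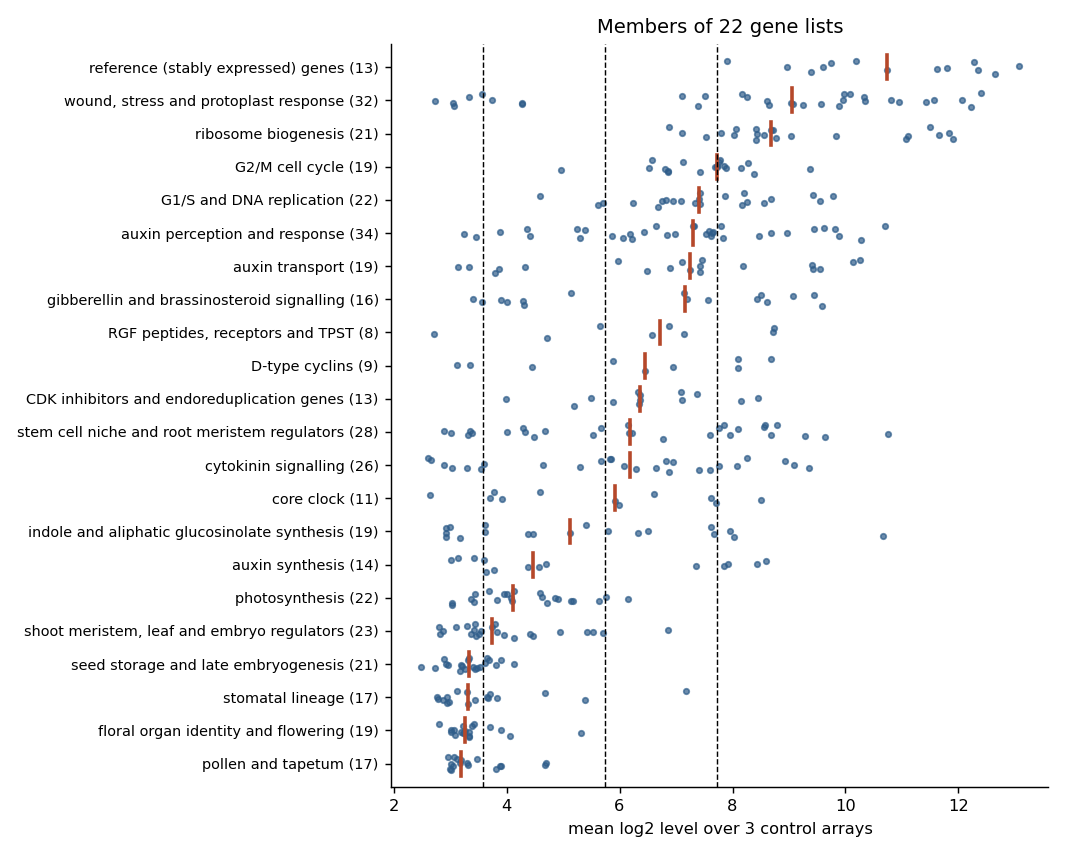
Each point is 1 measured gene at its mean log2 level over the 3 control arrays (x axis), grouped by list (y axis, number measured in parentheses), with the list median in red and the band limits dashed. The 13 reference genes all lie in the high band, and the lists of organs that were not sampled lie mostly left of the first limit.

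The label of the cells was checked against markers of the root tissues, 75 markers over 7 lists. WOX5 itself was not analysed here, and none of the 3 measured genes of the QC marker list was in the high band. BRAVO, a MYB factor that represses QC division, had 5.94, 5.39 and 5.69, around the median of all loci, and TEL1, an RNA-binding protein marker of the root tip, had 4.81, 4.90 and 4.74. With AGL42 in the low band, none of the 3 lay above the median on all arrays. SCR, which is transcribed in both the QC and the endodermis and was counted among the endodermis markers, was in the high band. JKD, which is also in the niche list and was counted among the cortex markers, was in the lower-middle band. The 3 genes of the QC list thus did not bear out the label by their level. No sorted cells of another tissue are among the arrays to set them against, and the cells are called WOX5-reporter cells, after the rule by which they were sorted.
Markers of the neighbouring root cap were often in the upper-middle band, with 6 of 11 there, 3 in the lower-middle and none in the low band. The high band held 2 (18.2%), against 25.0% of all loci. BRN1, a NAC factor of root cap maturation, had 9.52, 9.72 and 9.40, and CEL5, a cell wall hydrolase of the shedding cap, had 8.96, 9.01 and 8.48. AT1G65570 was entered in the marker list as RCPG, a name the gene table does not hold, and was left out of the 11. It had 11.29, 11.72 and 11.62, and 98.6% of loci lay below its mean. SMB, which is close to BRN1 in the NAC family, had 5.85, 6.23 and 5.90. Their part in the levels of other genes was not tested.
Epidermis markers had 1 of 14 in the high band, 6 in the upper-middle, 5 in the lower-middle and 2 in the low band. RHD2, an NADPH oxidase of root hairs, had 8.39, 8.64 and 8.27, and WER, the MYB factor of non-hair cells, had 7.55, 7.48 and 7.59. EXPA7 and LRX1, cell wall proteins of growing hairs, had means of 3.57 and 3.32.
The endodermis list had 2 of 12 in the high band, 2 in the upper-middle, 7 in the lower-middle and 1 in the low band. SCR and SCL3, a GRAS factor of gibberellin response, were the 2 in the high band. The Casparian strip proteins ran from CASP1, with 5.97, 6.53 and 5.80, to CASP5, with 3.83, 4.09 and 3.67. All 5 were highest on replicate 2, as were 39.4% of all loci. PER64, a peroxidase of the strip, had 4.44, 5.09 and 3.70.
Markers of the stele had none of 23 in the high band, 9 in the upper-middle, 11 in the lower-middle and 3 in the low band. REV, an HD-ZIP III factor of vascular patterning, had 7.80, 7.66 and 7.66, and XCP1, a protease of xylem cell death, had 7.44, 7.07 and 7.81. The xylem switch factors VND6 and VND7 had means of 2.94 and 2.91. The pericycle list had 1 of 9 in the high band, SKP2B with 8.74, 8.82 and 8.76, 3 in the lower-middle and 5 in the low band, among them the lateral root factors GATA23 (3.11) and PUCHI (2.99). Of the 3 cortex markers, AT1G09750 had 5.86, 5.75 and 5.60, JKD had 4.98, 4.48 and 4.56, and AT1G62510 had 3.63, 3.48 and 3.53.

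**Figure D3:**
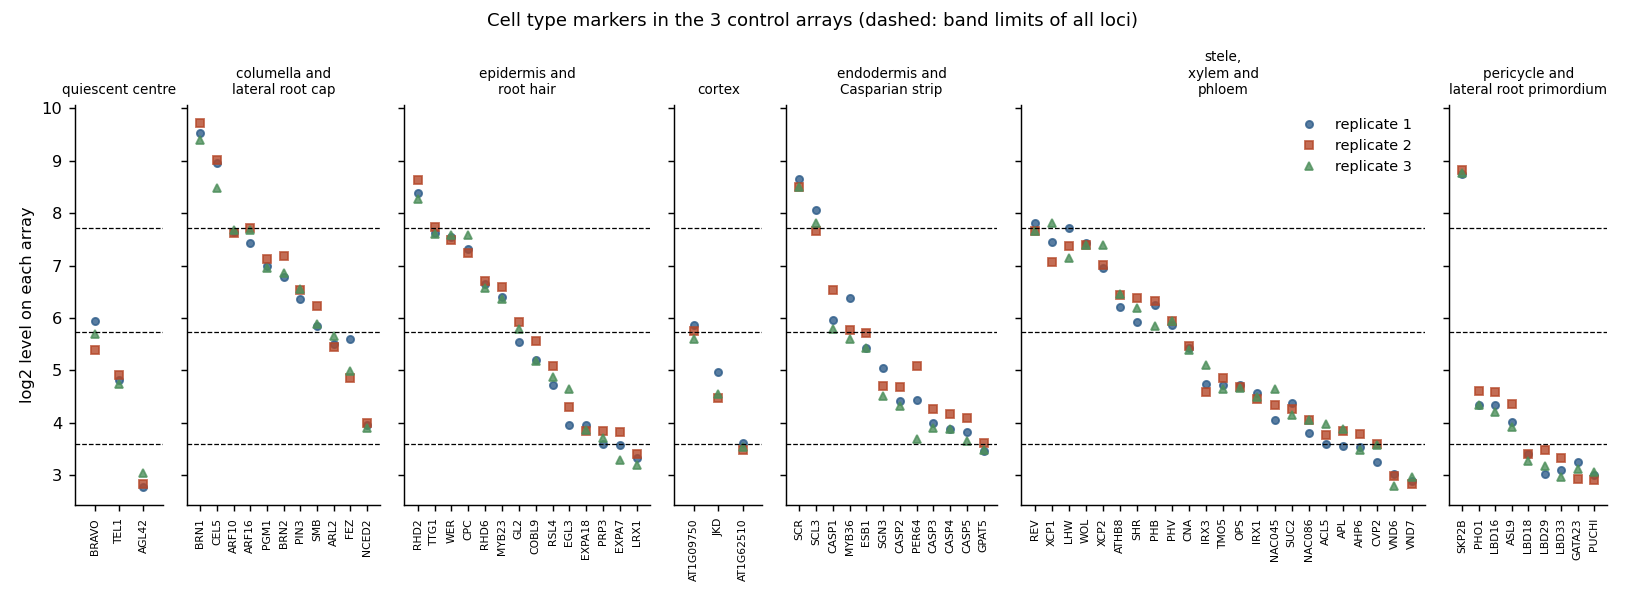
Each column is 1 marker gene and each symbol its log2 level on 1 array (y axis), in panels by tissue, with the band limits of all loci dashed. No stele, cortex or QC marker lies clear of the high band limit on all 3 arrays, and BRN1, CEL5 and SKP2B stay above it.

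Genes of the cell cycle were placed mostly in the upper bands. Of 19 G2/M genes, 9 (47.4%) lay in the high band, 9 in the upper-middle and 1 in the lower-middle. Of 22 G1/S and replication genes, 9 (40.9%) lay in the high band, 10 in the upper-middle and 3 in the lower-middle. KNOLLE, the syntaxin of the division plane, had 9.34, 9.42 and 9.34, and PCNA1, a sliding clamp of replication, had 9.73, 9.47 and 9.45. The kinesin POK1, with 4.87, 5.04 and 4.98, was the lowest G2/M member, and ORC3, with 4.65, 4.64 and 4.49, the lowest G1/S member. No member of either list was in the low band.
The D-type cyclins, which drive entry into the cycle, had 3 of 9 in the high band, 3 in the upper-middle, 1 in the lower-middle and 2 in the low band. CYCD3;2 had 8.71, 8.70 and 8.64, and CYCD6;1, a target of SHR and SCR in ground tissue divisions, had 3.35, 3.39 and 3.33. Of 13 inhibitors of cyclin-dependent kinases and endoreduplication genes, 2 lay in the high band, 8 in the upper-middle and 3 in the lower-middle. SMR4 had 8.61, 8.19 and 8.54, while KRP1 had 4.01, 3.90 and 4.07.

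Hormone genes had members in every band. Auxin response had 11 of 34 in the high band, 15 in the upper-middle, 6 in the lower-middle and 2 in the low band, and auxin transport 6 of 19, 8, 3 and 2. The auxin receptor AFB1 had 10.63, 10.73 and 10.74, and the efflux carrier PIN2 had 10.23, 10.22 and 10.31. AUX1, an influx carrier, had 9.37, 9.48 and 9.36. At the other end IAA29 had 3.45, 3.44 and 3.49, and the transporter ABCB21 3.36, 3.32 and 3.29.
Of 14 auxin synthesis genes, 4 (28.6%) lay in the high band, 1 in the upper-middle, 6 in the lower-middle and 3 (21.4%) in the low band. The high and low shares were close to the 25.0% of all loci. The flavin monooxygenase YUC8 had 8.58, 8.67 and 8.53, and the aminotransferase TAA1 had 8.37, 8.58 and 8.37. YUC4 had 3.06, 3.03 and 2.94 and YUC1 3.43, 3.43 and 3.40. By their means YUC3, YUC8 and YUC9 were thus in the high band while YUC1 and YUC4 were in the low band. YUC3 had 7.83, 8.08 and 7.61, so that its replicate 3 fell short of the high band limit.
Cytokinin signalling had 6 of 26 in the high band, 10 in the upper-middle, 4 in the lower-middle and 6 in the low band. The phosphotransfer protein AHP2 had 9.38, 9.29 and 9.40, and ARR10, a type-B response regulator, had 9.06, 9.28 and 8.95. ARR16, ARR17 and AHP4 had means of 2.90, 2.61 and 2.67. In gibberellin and brassinosteroid signalling 6 of 16 lay in the high band, 3 in the upper-middle, 5 in the lower-middle and 2 in the low band, led by the receptor BRI1 with 9.60, 9.58 and 9.58. BRL1, a BRI1 homologue, had 3.37, 3.45 and 3.39.
Of 8 genes for RGF peptides, which maintain the root meristem, their receptor RGI2 and the sulfotransferase TPST, 2 lay in the high band, 3 in the upper-middle, 2 in the lower-middle and 1 in the low band. RGI2 had 8.69, 8.69 and 8.82, and RGF3 had 8.55, 8.76 and 8.83. TPST had 7.05, 7.23 and 7.15, and RGF9 had 2.70, 2.56 and 2.87.

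Genes of protein synthesis and turnover lay mostly in the high band. All 32 members of the 20S and 26S proteasome lay in the high band, and so did 44 of 52 ribosomal proteins (84.6%), 22 of 26 translation factors, 10 of 11 tubulins and 12 of 13 protein disulfide isomerases, the chaperones of the secretory pathway. Ribosome biogenesis had 18 of 21 in the high band and 3 in the upper-middle, led by FIB1, a snoRNP protein (11.91), the nucleolin NUC1 (11.83) and NOP56, also a snoRNP protein (11.66). The members below the high band were NRPA1, the largest subunit of RNA polymerase I (7.52), SWA3 (7.10) and NUC2 (6.88). The ribosomal family was taken by name and did not separate cytosolic from organellar proteins, and its lowest members were RPL9 (5.67), RPL27 (5.11) and RPL12-B (4.37).
The 20 loci with the highest mean levels began with HSC70-1, a constitutive cytosolic chaperone, at 13.91, 13.94 and 13.91. SAC52, the ribosomal protein whose gene was found as a suppressor of acaulis5, had 13.56, 13.53 and 13.62, and FBR12, a translation factor of the eIF5A type, had 13.57, 13.54 and 13.53. Also among them were AAC1, the mitochondrial ADP/ATP carrier (13.52), FBA8, an aldolase of glycolysis (13.35), and GSTU19, a glutathione transferase (13.29). The ribosomal proteins RPL34 and BBC1 (13.31 and 13.19) and the embryo-defective loci emb2171 and emb2386 (13.45 and 13.41) were in the 20 too. The other 10, AT5G20290, AT3G60245, AT3G09200, AT1G67430, AT2G43610, AT2G19730, AT5G15200, AT1G52300, AT3G62870 and AT2G34480, had no symbol in the gene table and means from 13.28 to 13.64. Families were taken by name, and by name 3 of the 20 were counted as ribosomal proteins. What emb2171, emb2386 and the 10 loci without a symbol encode was not looked up, so more of the 20 may be ribosomal. No gene of the niche list was among the 20.
Of 13 reference genes, all 13 lay in the high band on each array, from GAPC1 with 13.07, 13.07 and 13.06 to SAND with 7.89, 7.88 and 7.93. Of 27 histones, 20 lay in the high band, and the 3 in the low band were HTR11, HIS1-3 and HTA4, with means of 3.58, 3.03 and 2.75.

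**Figure D4:**
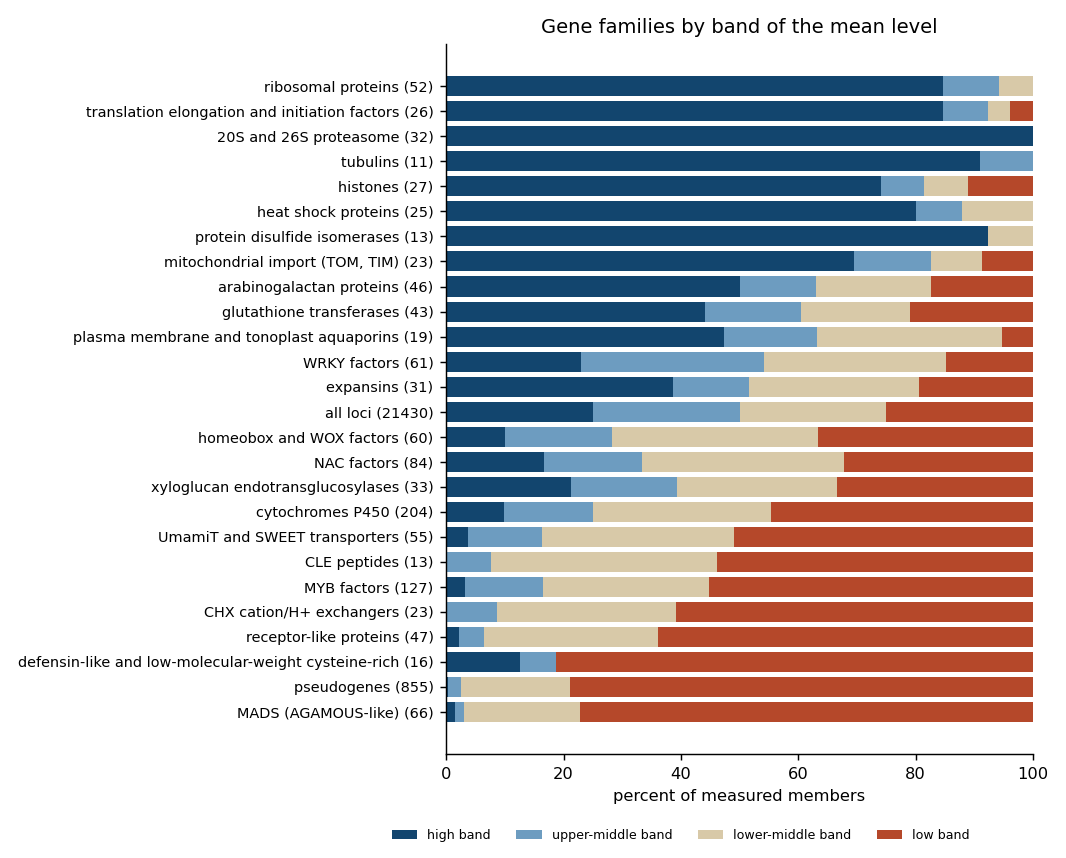
Bars give the percent of measured members (x axis) of each gene family, of pseudogenes and of all loci in each band of the mean level, with the number measured in parentheses. The proteasome lies wholly in the high band, and MADS factors and pseudogenes lie mostly in the low band.

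Several families of transcription factors, receptors and peptides had a larger share in the low band than the 25.0% of all loci. Of 66 MADS factors, 51 (77.3%) lay in the low band and 1 in the high band, AGL21, with 7.92, 7.83 and 7.96. Of 127 MYB factors 70 (55.1%), of 47 receptor-like proteins 30 (63.8%), of 23 CHX cation/H+ exchangers 14 (60.9%), of 13 CLE peptides 7 (53.8%) and of 16 defensin-like genes 13 (81.3%) lay in the low band. Of 204 cytochromes P450, 91 (44.6%) lay in the low band and 20 in the high band. CYP81D11, the highest of them and known to be induced by xenobiotics, had 11.31, 11.55 and 11.51. Amino acid and sugar transporters of the UmamiT and SWEET families had 28 of 55 in the low band and 2 in the high band.
Other families differed in their shares. NAC factors had 14 of 84 (16.7%) in the high band and 27 (32.1%) in the low band, and homeobox factors 6 of 60 (10.0%) and 22 (36.7%). Both thus leaned to the low band, against 25.0% of all loci in each. Arabinogalactan proteins of the cell surface had 23 of 46 in the high band and 8 in the low band, led by AGP31 with 12.76, 12.66 and 12.60. Expansins, which loosen the cell wall, had 12 of 31 in the high band and 6 in the low band, led by EXPA9 with 11.27, 11.31 and 11.47. Aquaporins had 9 of 19 and 1, xyloglucan endotransglucosylases 7 of 33 and 11, and WRKY factors 14 of 61 and 9. Mitochondrial import proteins lay mostly in the high band, with 16 of 23 (69.6%) there and 2 (8.7%) in the low band. Glutathione transferases had 19 of 43 in the high band and 9 in the low band, with GSTU25 at 12.67, 12.81 and 12.85 and GSTF5 at 2.95, 2.81 and 2.99.

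Genes of wounding, stress and the response to protoplasting were among the highest. Of 32, 21 (65.6%) lay in the high band, 3 in the upper-middle, 3 in the lower-middle and 5 in the low band. DREB2A, a factor of drought and heat, had 12.47, 12.40 and 12.35, JAZ1, a repressor of jasmonate signalling that jasmonate induces, had 12.27, 12.32 and 12.06, and ZAT12, a zinc finger factor of oxidative stress, had 12.14, 12.02 and 12.02. WRKY40 had 11.12, 10.64 and 10.64. The members near the bottom were LOX2, a lipoxygenase of leaf jasmonate synthesis (3.05), SAG12, a senescence protease (3.08), and PDF1.2, a defensin (2.73). Undigested root tips are not among these arrays, so how much of these levels came with digestion and sorting was not tested.
Heat shock proteins had 20 of 25 in the high band, 2 in the upper-middle and 3 in the lower-middle. From the stress list, the inducible HSP101 had 8.60, 9.26 and 9.36. The inducible heat shock transcription factor HSFA2, also of that list, had 8.12, 8.78 and 8.94. For both, replicate 1 was lowest. HSP21, a plastid small heat shock protein, had 4.55, 5.14 and 5.04.

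Photosynthesis genes kept to the lower bands with 2 exceptions. Of 22, none lay in the high band, 2 in the upper-middle, 15 in the lower-middle and 5 in the low band. LHCB5, an antenna protein of photosystem II, had 6.10, 5.88 and 6.45, and PSAF, of photosystem I, had 5.88, 5.51 and 5.88. PSBQ2 and PSAN had means of 3.03. Of 11 core clock genes, 1 lay in the high band, 5 in the upper-middle, 4 in the lower-middle and 1 in the low band. ELF4 of the evening complex had 8.88, 8.45 and 8.17, and RVE8 had 2.61, 2.70 and 2.64.
Glucosinolate synthesis had 3 of 19 in the high band, 5 in the upper-middle, 6 in the lower-middle and 5 in the low band. PEN2, a myrosinase that breaks down indole glucosinolates, was the highest with 10.74, 10.71 and 10.54. CYP79B2 and CYP83B1, the first steps of the indole branch, had 8.27, 7.74 and 7.89, and 8.38, 7.95 and 7.76. MAM1 and MAM3, which extend the side chain of the aliphatic branch, had 2.94, 2.91 and 2.94, and 3.09, 2.63 and 3.04. MYB29, a MYB factor of the aliphatic branch, had 3.03, 3.00 and 2.78, and MYB122, of the indole branch, had 2.83, 3.12 and 3.05. The low-band genes named here were thus MAM1, MAM3 and MYB29 of the aliphatic branch and MYB122 of the indole branch. The indole genes CYP79B2 and CYP83B1 lay in the high band. Other indole genes, CYP79B3 (5.41), MYB51 (4.46) and CYP81F2 (4.38), lay in the lower-middle band. The list was not divided by branch, so a difference between the branches as sets was not tested.

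The arrays were close to each other. Pearson's r between pairs of arrays, across loci, which are not independent replicates, was 0.996 to 0.997, and the median SD was 0.084 in the high band, 0.107 in the upper-middle, 0.121 in the lower-middle and 0.095 in the low band. Of 5357 loci of the high band, 5076 (94.8%) were in it on all 3 arrays, and of 5358 of the low band 4816 (89.9%). A range over the arrays of more than 1 log2 unit was seen at 25 loci (0.117%), and it was largest for ENODL9, an early nodulin-like protein, with 5.56, 6.31 and 7.03. Replicate 1 was the array that stood apart at 15 of the 25, and without it 4 loci had such a range.
The most variable genes above the median level also included CHIL, a chalcone isomerase-like protein, with 10.34, 9.19 and 9.34, 4CL3, an enzyme of phenylpropanoid synthesis, with 6.95, 5.95 and 5.98, SHM7, a serine hydroxymethyltransferase, with 8.33, 9.39 and 9.08, and JMJD5, a demethylase linked to the clock, with 7.30, 6.68 and 6.11. The others were AT1G71000 (6.90, 7.93 and 8.19), CXE13, a carboxylesterase (6.70, 5.79 and 6.89), AT5G26220 (7.41, 8.54 and 8.09), AT4G16260 (9.08, 10.16 and 9.67) and ACO1 (6.56, 7.54 and 7.44). Replicate 1 was highest for CHIL, 4CL3 and JMJD5 and lowest for ENODL9, SHM7, AT1G71000, AT5G26220, AT4G16260 and ACO1, while for CXE13 it lay between the other arrays. Deviations of single arrays were drawn for 4 groups, of which flavonol synthesis and the sulfur deficiency response were listed after these values were seen.

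**Figure D5:**
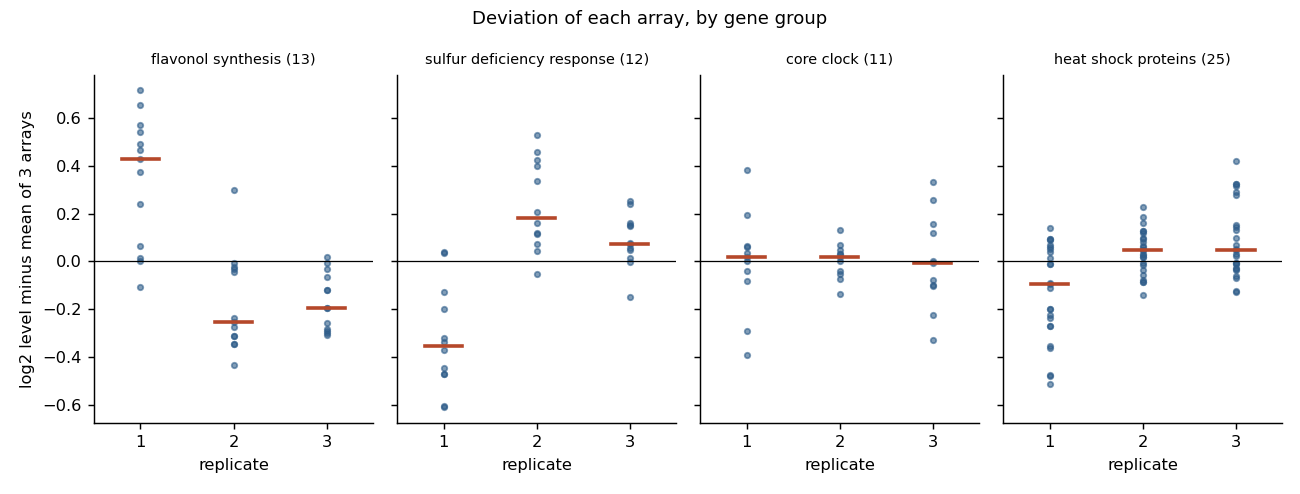
Each point is the log2 level of 1 gene on 1 array minus its mean over the 3 arrays (y axis) for 4 gene groups, with the group median in red and the number of genes in parentheses. Most flavonol genes lie above 0 on replicate 1 and most sulfur deficiency genes below 0, with group medians of 0.43 and -0.35.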

How the data were processed

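Expression was measured with arrays in GFP-positive protoplasts of root tips. The authors deposited log2 expression values, made with RMA and with limma 3.24.15 named, per the submitters' processing notes. For the array, probe set definition and build, nothing is given in the sources used here. Symbols, biotypes and the order of genes along the chromosomes came from the TAIR10.1 gene table, which matched 21231 of 21430 loci. No coordinates are printed here. The 64 control probe sets served only as yardsticks.

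The 3 control arrays were used as deposited, with no filter and no test. Each locus was ranked by its mean over the arrays in Python 3.11.15 with pandas 2.3.3. Each of the 4 bands holds 25.0% of the ranked loci. Replicates are taken as the labels number them, and their number, 3, limits the precision. The 22 lists, 7 marker lists and the rules for 24 families hold 577 list entries, of which 499 had a measured locus. They were chosen with earlier results of these data known. Genes were named from, per list, the 3 highest and 3 lowest members (all where a list had 12 or fewer), the 20 loci with the highest mean, the 10 most variable above the median, and PLT1, PLT2, SCR, SHR, AGL42 and AT1G65570. All other named genes were chosen after their values were seen. Probes shared by close paralogs cannot be recognised here. Families that need gene descriptions, such as F-box proteins, and features such as gene length or promoter motifs were not analysed here. The ranking was tested on simulated data. Other settings are given in the closing section.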

Additional observations from a re-analysis of the deposited data

How the results depend on the processing

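No paired analysis was possible because no result here comes from a test and only 1 group was used. Under quantile normalization of the 3 arrays, the mean of linear values, ranking of loci matched to the gene table alone, and leaving out loci with values identical to another (chosen after seeing the data), every count of list, marker and family members in the high or low band stayed within 1.5 times its value. Taking the highest or lowest 20.0% of loci, a smaller share by construction, moved 19 counts. The top counts were 7 for niche regulators, 4 for G2/M, 1 for D-type cyclins, 2 for auxin synthesis, 1 for glucosinolate synthesis, 1 for the endodermis, 0 for MADS, 3 for homeobox and 1 for UmamiT and SWEET genes. The bottom counts were 1 for auxin response, 0 for gibberellin and brassinosteroid signalling, 3 for photosynthesis, 6 for shoot and embryo regulators, 1 for the epidermis, 0 for the cortex, 0 for the endodermis, 14 for homeobox, 18 for UmamiT and SWEET and 9 for CHX genes. Requiring the band on every array gave bottom counts of 1 for gibberellin and brassinosteroid signalling, 1 for the epidermis and 0 for the cortex, and top counts of 1 for the endodermis and 1 for UmamiT and SWEET genes. Leaving out each replicate in turn gave, for the core clock, top counts of 1 to 2 and bottom counts of 1 to 2 (2 without replicate 3). It gave top counts of 3 to 5 for glucosinolate synthesis (5 without replicate 2) and 0 to 1 for the stele (1 without replicate 2). Bottom counts were 1 to 2 for the epidermis (1 without replicate 3), 0 to 1 for the cortex (0 without replicate 2) and 1 to 2 for aquaporins (2 without replicate 1). Loci with a range above 1 log2 unit numbered 4 without replicate 1, 9 without replicate 2 and 14 without replicate 3, where a range over fewer arrays is smaller by construction, and 13 when loci below the median were left out. Small lists move by 1 gene near a limit, and with 3 arrays and no detection calls, levels near the trp controls have no order.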

Other observations

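Differences between the arrays of this 1 group were followed in flavonol synthesis and the sulfur deficiency response. Both groups below were listed after the values of the most variable genes were seen, so their counts and medians describe these arrays and support nothing further. Some of those variable genes are counted as members, CHIL and 4CL3 in the flavonol group and SHM7 and AT5G26220 in the sulfur group. Of 13 genes of flavonol synthesis, 11 were highest on replicate 1, where the median deviation from the mean of the 3 arrays was 0.43, against -0.25 on replicate 2 and -0.19 on replicate 3. TT4, the chalcone synthase, had 11.18, 10.50 and 10.75, F3H had 10.89, 10.16 and 10.14, FLS1, the flavonol synthase, had 9.41, 8.61 and 8.57, and MYB12, the factor that activates these genes, had 8.92, 8.18 and 8.37. DFR, of the anthocyanin branch, had 2.96, 3.37 and 2.87.

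Of 12 measured genes of the sulfur deficiency response, 10 were lowest on replicate 1, where the median deviation was -0.35, against 0.18 on replicate 2 and 0.07 on replicate 3. APR3, an adenylylsulfate reductase, had 11.39, 11.88 and 12.01, SULTR1;2, a sulfate uptake carrier, had 10.03, 10.93 and 10.55, and BGLU28 had 6.33, 7.19 and 6.87. Among all 21430 loci, 35.9% were lowest and 35.3% highest on replicate 1. Of the 25 heat shock proteins, 15 were lowest on replicate 1. For the 11 core clock genes the median deviations were 0.02, 0.02 and -0.01 on replicates 1, 2 and 3. These medians hide members that moved in opposite ways, with 5 highest on replicate 1, 2 on replicate 2 and 4 on replicate 3. CCA1 had 3.31, 3.84 and 3.96 and PRR7 3.63, 3.88 and 4.26. By contrast, ELF4 had 8.88, 8.45 and 8.17 and TOC1 7.90, 7.74 and 7.48. What differed between the 3 preparations was not tested.

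Neighbouring genes shared their band more often than all pairs did. Among 20353 adjacent pairs of measured protein-coding loci, the second was in the low band in 31.1% of pairs whose first locus was, against 22.6% of all pairs, and in the high band in 28.7% against 26.1%. Spearman's rho between neighbours was 0.107 across pairs, which share loci and are not independent. Values identical on all 9 arrays to those of another locus were found at 221 loci (1.03%) in 106 groups, and 49 of the 78 loci of the mitochondrial genome were identical to a locus of chromosome 2.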
